A study of Mus musculus with 40 samples.

Results

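The genes of the AP-1 transcription factors and of their relatives ATF3 and BATF3 were examined for H3K27ac, a histone acetylation found at active promoters and enhancers. The 9 members were the FOS family (Fos, Fosb, Fosl1 and Fosl2), the JUN family (Jun, Junb and Jund), Atf3 and Batf3. They were chosen by name, from 21938 protein-coding genes in all, and each was read in a window of its annotated GENCODE span plus 20 kb either side. Of all protein-coding genes, 17747 had a peak in such a window in at least 1 library, and all 9 members were among them. The libraries came from preadipocytes of the inguinal white fat of C57BL/6 mice, which were either wild-type (WT) or carried a double knockout (DKO) of Hmgn1 and Hmgn2 (Hmgn1-/- Hmgn2-/-), whose proteins bind nucleosomes. Cells of both genotypes were collected before induction (day 0) and after 3, 6 and 9 days of differentiation into brown-like adipocytes. The inducing medium held insulin, dexamethasone, IBMX, T3 and rosiglitazone and was followed by a maintenance medium with insulin and T3. The 8 groups of genotype and day held 3 libraries each, 24 in all. The knockout was carried by the whole animal from the germ line, so a difference between genotypes may have arisen before the cells were plated. The cells were taken from digested fat by culture on coated plates and not by a sort for a marker. The study calls the 3 libraries of a group biological replicates, without saying whether they came from separate mice or separate cultures, and the p-values below measure the spread between them.

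AP-1 is a dimer of basic leucine zipper proteins. JUN proteins pair with each other or with FOS proteins, whereas FOS proteins bind DNA only with a partner such as a JUN protein. The dimers bind the letters TGACTCA, and dimers with ATF and CREB proteins prefer TGACGTCA. Fos, Fosb, Jun, Junb and Atf3 are immediate-early genes, which cells switch on within minutes of serum, growth factors or stress. FRA2, the protein of Fosl2, and JUN are known to hold back browning of white adipocytes, and the study asked how these factors act in cells without HMGN proteins.

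The measure was the length under peaks in a window, in kb. It rises with the number and width of peaks that pass the peak caller's threshold, and it counts the peaks of neighbouring genes in the window. A shorter length in bulk cells does not tell fewer cells with the mark from less mark per cell. The libraries held 47448 to 115923 peaks over 20.7 to 96.4 Mb, with a background of 4.50 to 12.9 reads per kb, the nearest value to a depth that the peak lists hold. At day 6, DKO lists covered 20.7 to 36.3 Mb against 55.5 to 60.4 Mb in WT, at backgrounds of 9.81 to 11.4 and 9.82 to 11.2 reads per kb. At day 9 they covered 61.2 to 68.8 Mb against 48.2 to 59.6 Mb. A difference at a member was therefore also expressed as kb in the window per 100 Mb covered in the library, here called the scaled length. A pair of libraries stood apart: DKO day 0 replicate 2, with a median peak of 1076 bp against 313 to 376 bp elsewhere, and WT day 3 replicate 3, with the lowest background.

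Markers of the labelled cells were checked by peaks within 1 kb of a transcript start. Of 8 adipocyte markers, 5 or 6 had a peak at day 0 in WT and 8 of 8 at days 6 and 9 in both genotypes, while Ucp1, the uncoupling protein of brown fat, had none in any library. Of 8 preadipocyte markers 4 to 7 had a peak in each library (4.85 to 9.54 kb summed), without Dlk1 in any, and of 8 markers of brown-like adipocytes 4 or 5 in WT and 6 or 7 in DKO at day 9. Markers of other cells were present at day 0 and summed to less on later days. The 6 markers of macrophages and blood (Ptprc, Adgre1, Csf1r, Cd68, Lyz2 and Itgam) all had peaks in all 6 libraries of day 0, with a summed length of 8.06 to 8.195 kb in WT against 8.74 to 11.6 kb in DKO. At day 9 their sum was 2.29 to 2.98 kb in WT against 2.96 to 4.17 kb in DKO. Of 6 endothelial markers, 4 or 5 had peaks in WT at day 0 (2.29 to 2.93 kb) and 5 in DKO (3.49 to 7.52 kb), against 1 or 2 (0.741 to 1.24 kb) and 3 (1.16 to 1.84 kb) at day 9. Of 4 smooth muscle markers, 1 to 3 had peaks at day 0 (1.79 to 2.66 kb) and 1 or 2 at day 9 (0.646 to 1.38 kb). The lists of 6 epithelial, 4 skeletal muscle and 3 mesothelial markers had 0 peaks throughout. The part of these cells in the results below was not tested.

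Over the 24 libraries the members differed in how much of their window was marked. Peaks covered 39.8% ± 5.75 (SD, n = 24) of the Junb window, 35.8% ± 8.26 of that of Fosl1, 27.3% ± 5.84 of that of Fosl2 and 25.8% ± 6.87 of that of Fos. The share was 14.2% ± 5.98 for Jund, 11.9% ± 1.48 for Jun, 8.19% ± 4.96 for Fosb, 5.46% ± 5.10 for Atf3 and 2.12% ± 3.39 for Batf3. In that order, the gap between neighbours exceeded the larger of their SDs for Fosl1 against Fosl2 and for Fos against Jund, and lay within it for the others. Among all genes tested, the share of window covered ranked at percentiles from 33.0 for Batf3 to 99.8 for Junb. In 8 of the 9 genes the merged region at the gene's own start, the union of peaks of all libraries there, held a peak in 24 of 24 libraries. The exception was Batf3, whose start region held a peak in 9 libraries. Folds and summit reads given below for a start are those of the best-ranked peak anywhere in the gene's start region. Where in the region this peak lay in each library was not compared.

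**Figure D1:**
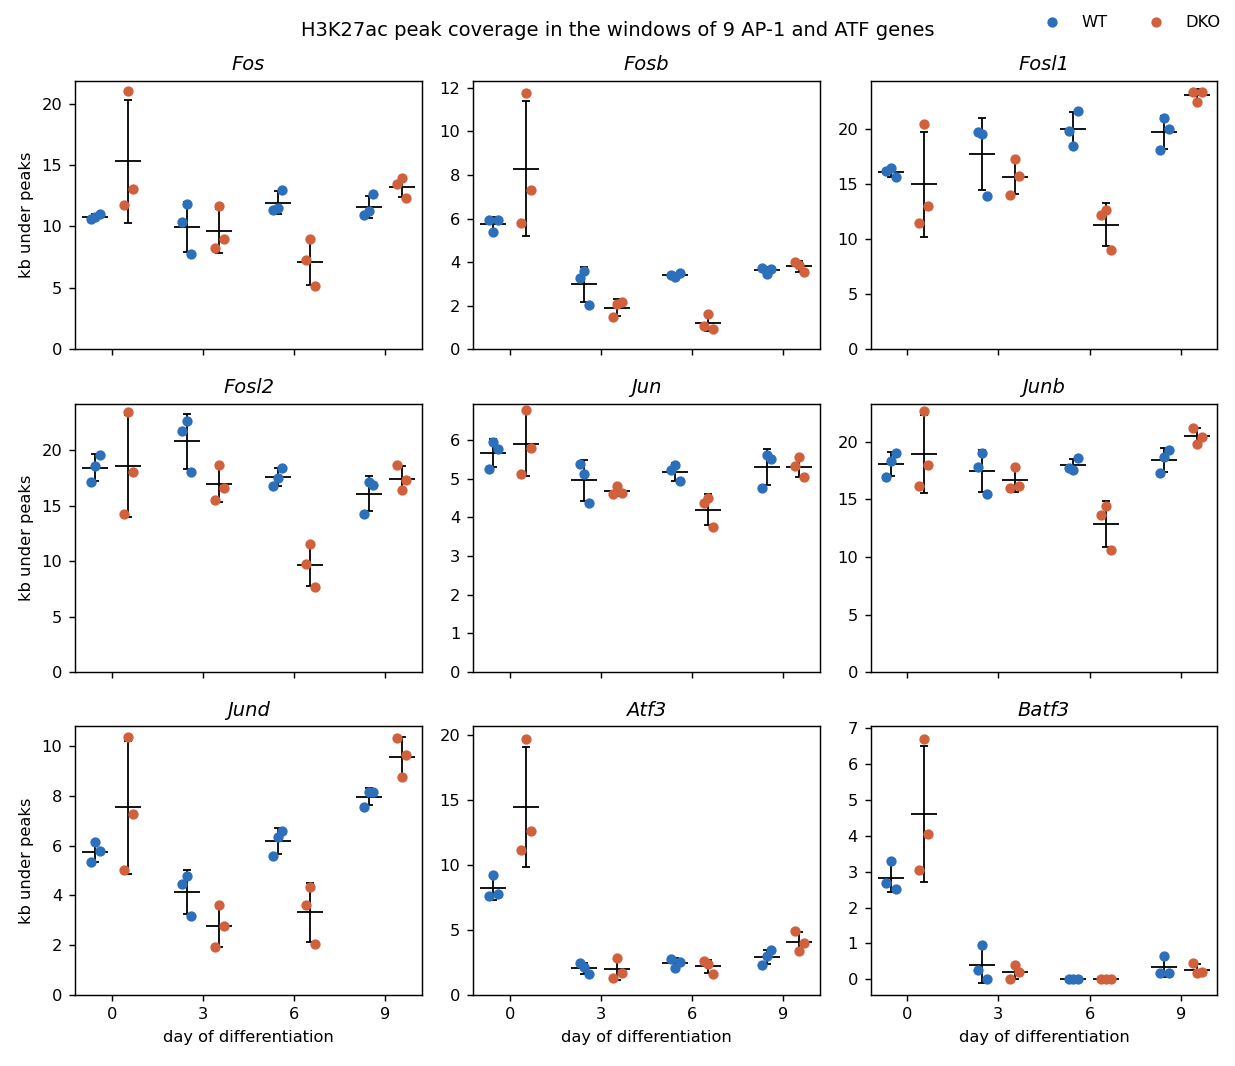
Length under H3K27ac peaks (kb, vertical axes, which differ between panels) in the window of each of the 9 genes against the day of differentiation, with 1 point per library (3 per group, WT blue and DKO orange) and the mean and SD in black. Atf3, Batf3 and Fosb lie highest at day 0, and at day 6 all 3 DKO points of Fos, Fosb, Fosl1, Fosl2, Jun, Junb and Jund lie below the WT points, a direction that on the scaled length holds without overlap for Fosb and is opposite without overlap for Jun and Junb.

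Fos encodes the founding member of the family and lies on chr12:85473890-85477273 (GRCm38, plus strand). Its promoter (chr12:85473640-85473879, plus strand, RefSeq, GRCm38) is printed because it holds the CREB half-site TGACG, which 16.9% of 27025 RefSeq promoters of the same 240 bases held on either strand. The matches, in capitals, begin at positions −129 and −66 relative to the start.
Fos promoter: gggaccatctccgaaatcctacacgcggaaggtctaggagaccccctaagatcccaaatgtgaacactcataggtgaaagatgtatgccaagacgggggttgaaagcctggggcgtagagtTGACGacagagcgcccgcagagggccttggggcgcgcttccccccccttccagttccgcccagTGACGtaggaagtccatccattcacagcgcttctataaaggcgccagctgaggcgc
At day 0 the Fos window held 10.6, 10.8 and 11.0 kb under peaks in WT and 11.8, 21.04 and 13.1 kb in DKO. At day 6 it held 11.3, 11.5 and 13.0 kb in WT against 7.24, 9.01 and 5.16 kb in DKO. DKO was thus the higher genotype at day 0 and the lower one at day 6, without overlap on either day, by 4.50 kb and by −4.80 kb (exact permutation p = 0.1 each, the smallest that 3 against 3 libraries allow). At day 3 the groups overlapped, with 10.4, 11.8 and 7.78 kb in WT against 8.27, 11.7 and 8.95 kb in DKO. They overlapped again at day 9, with 11.0, 11.2 and 12.6 kb in WT against 13.5, 13.9 and 12.3 kb in DKO. The difference between genotypes changed with the day (exact permutation adjusted p = 0.0251 over 17747 genes). Without the wide-peaked DKO library the day 0 difference was 1.63 kb, still without overlap, and the adjusted p for the change was 0.0473. On the scaled length the day 6 difference was 2.64 kb per 100 Mb in the other direction with overlapping groups, and the change with the day had an adjusted p of 0.341 by the same exact test.

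The peak of best rank, by q value, in the Fos window was at the gene's own start in all 24 libraries, with folds of 11.3 to 29.9 over the local background. The start region (−2.68 to 2.91 kb from the start) was marked for 3.92 kb ± 0.0538 (SD, n = 3) in WT against 2.82 kb ± 0.485 in DKO at day 6. An intergenic region at −12.4 to −10.4 kb from the Fos start had a peak in 3 of 3 libraries of every other group but in 1 of 3 DKO libraries at day 6. That peak had a fold of 4.51 and 11 reads at its summit, against folds of 4.83 to 6.79 and 14 to 18 reads in the 3 WT libraries of the day.

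Fosb, a close relative of Fos, lies on chr7:19302696-19310051 (minus strand). Its mean coverage was highest at day 0, with 5.96, 5.40 and 5.94 kb in WT against 5.78, 11.8 and 7.33 kb in DKO. By day 3 the values were 3.29, 3.60 and 2.06 kb in WT against 1.47, 2.09 and 2.17 kb in DKO. From day 0 to day 3 Fosb fell by 4.58 kb on average over the genotypes (exact permutation adjusted p = 0.0202), and from day 0 to day 9 it fell by 3.30 kb (adjusted p = 0.0192). At day 6 the WT libraries held 3.40, 3.34 and 3.502 kb and the DKO libraries 1.07, 1.63 and 0.945 kb. This DKO difference of −2.20 kb came without overlap, and Fosb was the only member whose groups did not overlap in that direction at day 6 on the scaled length too (−1.92 kb per 100 Mb, exact permutation p = 0.1). At day 9 the groups overlapped, with 3.74, 3.48 and 3.71 kb in WT against 4.00, 3.89 and 3.54 kb in DKO. The difference changed with the day (exact permutation adjusted p = 0.0278), but not past the threshold without the wide-peaked library (0.0733) or on the scaled length (0.213).

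Part of the day 0 length at Fosb lay in an intergenic region at −7.61 to −5.07 kb from the start. It had a peak in all 6 libraries of day 0 and in 2 of the 18 later ones. The length there at day 0 was 1.29, 1.02 and 1.65 kb in WT against 1.70, 2.52 and 1.68 kb in DKO, with folds of 5.45 to 11.8 and 19 to 57 reads at the summit. The later peaks, in 1 WT library of day 6 and 1 DKO library of day 9, spanned 0.16 and 0.21 kb at folds of 3.94 and 4.40. The 300 bases around the summit of its best peak (chr7:19315990-19316289, minus strand, RefSeq, GRCm38) are shown as the sequence of this day 0 region. They held none of the 4 motifs searched (TGACTCA, TGACGTCA, TGACATCA and TGACG, both strands).
Fosb upstream region: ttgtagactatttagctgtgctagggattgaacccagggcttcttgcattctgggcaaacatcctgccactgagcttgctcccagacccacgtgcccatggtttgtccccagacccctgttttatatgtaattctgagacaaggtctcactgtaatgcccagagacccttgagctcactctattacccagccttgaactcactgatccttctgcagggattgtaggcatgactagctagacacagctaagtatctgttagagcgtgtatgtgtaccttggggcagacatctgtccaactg
At the start of Fosb itself, which kept a peak in all 24 libraries, the fold at day 6 was 16.8 ± 3.82 (SD, n = 3) in WT and 7.16 ± 1.46 in DKO, and the marked length was 1.93 kb ± 0.113 and 0.656 kb ± 0.197. The fold there at day 3 was 7.79 ± 1.55 in WT and 13.0 ± 4.67 in DKO. At day 9 it was 19.5 ± 3.38 and 11.5 ± 2.435, and at day 0 it was 15.9 ± 5.245 and 13.3 ± 2.72. These folds did not overlap at days 3, 6 and 9, and no share of all gene starts was computed. The summit reads at day 9 overlapped (44 to 65 in WT, 49 to 67 in DKO). The start held the best-ranked peak of the window in 12 libraries and the start of the neighbouring Gm26802 in the other 12.

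Fosl1, which encodes FRA1, lies on chr19:5447547-5455946 (plus strand) in a window dense with other genes. It had the largest day 6 difference of the members in kb: 19.9, 18.5 and 21.7 kb in WT against 12.2, 12.7 and 9.08 kb in DKO. The day 9 values were 18.1, 21.1 and 20.01 kb in WT against 23.4, 22.5 and 23.4 kb in DKO. DKO was thus lower without overlap at day 6 (−8.69 kb) and higher without overlap at day 9 (3.38 kb), with exact permutation p = 0.1 for each. On the scaled length the groups overlapped on both days, with differences of 2.97 and 0.190 kb per 100 Mb. At day 0 the window held 16.2, 16.5 and 15.7 kb in WT against 11.5, 20.5 and 13.1 kb in DKO, a difference of −1.09 kb that became −3.81 kb, without overlap, when the wide-peaked library was left out. At day 3 it held 19.7, 19.6 and 13.9 kb in WT against 14.1, 17.3 and 15.8 kb in DKO, which overlapped. Fosl1 rose by 5.85 kb from day 0 to day 9 (exact permutation adjusted p = 0.0192).

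The best-ranked peak of the Fosl1 window was never at Fosl1. It lay at the start of Fibp in 9 libraries, of Efemp2 in 8, of Drap1 and AI837181 in 6 and of Ccdc85b in 1. The own start of Fosl1 had folds of 8.29 ± 1.97 (SD, n = 3) in WT and 8.10 ± 3.06 in DKO at day 0. They were 13.5 ± 1.51 in WT and 8.34 ± 1.26 in DKO at day 6, and 15.8 ± 2.16 in WT and 20.1 ± 2.96 in DKO at day 9. The start region was marked for 5.13 kb ± 0.414 in WT against 6.59 kb ± 0.0968 in DKO at day 9. An intergenic region at −16.3 to −12.4 kb from the Fosl1 start held a peak in all 24 libraries, and the 300 bases at its summit (chr19:5433505-5433804, plus strand, RefSeq, GRCm38) are printed because they carry TGACTCA, the AP-1 letters, at positions 37 and 59, in capitals.
Fosl1 upstream region: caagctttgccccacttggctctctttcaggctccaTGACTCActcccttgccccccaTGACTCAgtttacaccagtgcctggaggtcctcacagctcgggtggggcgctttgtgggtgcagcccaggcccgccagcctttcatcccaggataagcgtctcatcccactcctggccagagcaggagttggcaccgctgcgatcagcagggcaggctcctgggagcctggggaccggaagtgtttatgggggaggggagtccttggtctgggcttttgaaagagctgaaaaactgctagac

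Fosl2, the gene of FRA2, lies on chr5:32135801-32157842 (plus strand). A merged region of 19428 bp ran from −4.16 to 15.3 kb and was the widest of the members' windows. In the Fosl2 window there were 17.2, 18.6 and 19.6 kb under peaks in WT and 14.3, 23.4 and 18.1 kb in DKO at day 0. Day 3 gave 21.7, 22.7 and 18.0 kb in WT against 15.5, 18.7 and 16.6 kb in DKO. Both days overlapped between genotypes. At day 6 the values were 16.8, 17.6 and 18.4 kb in WT against 9.74, 11.6 and 7.69 kb in DKO, a DKO difference of −7.90 kb without overlap (exact permutation p = 0.1). At day 9 they were 14.3, 17.1 and 16.9 kb in WT against 18.7, 16.4 and 17.3 kb in DKO. Over the 4 days Fosl2 differed by −2.57 kb (exact permutation p = 0.0429), which did not pass after adjustment over all genes (adjusted p = 0.494, and 0.110 with −3.17 kb without the wide-peaked library). On the scaled length the day 6 groups overlapped, with a difference of 1.61 kb per 100 Mb, and DKO was lower without overlap at day 0 and at day 9 (−8.09 and −2.002 kb per 100 Mb).

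The fold of the best-ranked peak in the Fosl2 start region, a ratio to the local background, did not follow the length. Within these 19428 bp the place of that peak was not compared between libraries. At day 6 the fold was 19.3 ± 0.138 (SD, n = 3) in WT and 23.7 ± 1.68 in DKO. The marked length of the same region was 14.3 kb ± 0.739 and 9.16 kb ± 1.82. The reads at the summit that day were 87 to 88 in WT and 61 to 76 in DKO, thus lower in DKO without overlap. At day 3 the folds were 25.1 ± 2.82 in WT and 16.6 ± 6.69 in DKO. Outside the start region, 3 regions had a peak in 3 of 3 WT libraries and 0 of 3 DKO libraries of a day. A region at −19.9 to −19.3 kb was marked on day 6 in WT alone and in no other library of the series, with folds of 3.86 to 6.39 and 11 to 19 reads. Another, at 15.7 to 16.6 kb and over an exon, differed this way at day 3 and had 7 to 15 reads per peak in WT. The last lay at −12.6 to −11.8 kb and had 20 to 25 reads in the WT libraries of day 6. It had a peak in 3 of 3 libraries of both genotypes at day 9. Peaks were also there in 3 WT and 2 DKO libraries at day 3, and in 2 WT and 1 DKO libraries at day 0. Its summit window is shown because it had the most reads of these regions (chr5:32124048-32124347, plus strand, RefSeq, GRCm38) and held none of the 4 motifs.
Fosl2 upstream region: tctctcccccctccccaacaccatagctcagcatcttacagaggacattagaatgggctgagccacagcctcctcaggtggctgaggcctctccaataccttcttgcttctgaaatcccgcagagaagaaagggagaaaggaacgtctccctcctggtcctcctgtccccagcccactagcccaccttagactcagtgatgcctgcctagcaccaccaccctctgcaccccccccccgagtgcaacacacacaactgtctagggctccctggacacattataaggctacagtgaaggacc

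Jun encodes the prototype partner of FOS and lies on chr4:95049034-95052222 (minus strand). Its promoter (chr4:95052233-95052472, minus strand, RefSeq, GRCm38) is printed because it holds TGACATCA, the AP-1-like letters for which this promoter is known. They begin at position −45 and were found in 2.91% of the 27025 promoters.
Jun promoter: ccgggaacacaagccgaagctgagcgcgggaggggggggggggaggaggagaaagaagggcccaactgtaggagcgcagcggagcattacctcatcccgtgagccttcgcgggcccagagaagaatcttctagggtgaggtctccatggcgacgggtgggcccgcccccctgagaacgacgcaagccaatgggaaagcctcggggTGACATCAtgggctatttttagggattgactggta
Jun had the smallest SD of the share covered, 3.74 to 6.78 kb over all libraries, and its 6830 bp region across the gene, marked in all 24 libraries, also holds the start of the antisense gene Junos. ChIP carries no strand, so the signal of the 2 genes cannot be told apart. At day 0 there were 5.25, 5.96 and 5.78 kb in WT against 5.13, 6.78 and 5.79 kb in DKO. By day 3 there were 5.39, 5.12 and 4.36 kb in WT against 4.60, 4.82 and 4.62 kb in DKO. The genotypes overlapped on both days, and Jun fell by 0.964 kb between them (exact permutation adjusted p = 0.0330), a call that was lost without the shallow WT library (−0.814 kb, adjusted p = 0.0520) and whose direction was opposite on the scaled length (2.33 kb per 100 Mb). At day 6 the values were 5.23, 5.36 and 4.93 kb in WT against 4.36, 4.50 and 3.74 kb in DKO. This difference of −0.975 kb came without overlap, whereas on the scaled length DKO was higher without overlap, by 5.23 kb per 100 Mb (exact permutation p = 0.1 for both). At day 9 there were 4.77, 5.61 and 5.51 kb in WT against 5.33, 5.56 and 5.03 kb in DKO, a difference of 0.0133 kb. On the scaled length DKO was lower without overlap at day 0 (−1.95 kb per 100 Mb) and at day 9 (−1.33). The fold at the Jun start in DKO was 17.8 ± 4.18 (SD, n = 3) at day 6, against 28.2 ± 2.44 in WT, and 21.1 ± 3.41 to 29.2 ± 2.52 on the other days.

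Junb, whose protein often counters JUN at shared sites, lies on chr8:84974484-84978718 (minus strand) beside Prdx2, Rnaseh2a and Hook2. It was the most densely marked member, with a region of 12906 bp from −8.60 to 4.31 kb around the start. Coverage at day 0 was 16.95, 18.3 and 19.0 kb in WT against 16.2, 22.7 and 18.0 kb in DKO. At day 3 it was 17.9, 19.1 and 15.5 kb in WT against 16.0, 17.8 and 16.2 kb in DKO. On these days the genotypes overlapped. At day 6 WT held 17.7, 17.5 and 18.6 kb and DKO 13.7, 14.4 and 10.6 kb, and at day 9 WT held 17.3, 18.7 and 19.3 kb and DKO 21.2, 19.9 and 20.5 kb. DKO was lower without overlap at day 6 (−5.07 kb) and higher without overlap at day 9 (2.09 kb), whereas the scaled length was higher in DKO without overlap at day 6 (11.9 kb per 100 Mb) and overlapped at day 9 (−1.57). The exact permutation p was 0.1 for each difference without overlap.

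The start region of Junb held 3 copies of TGACTCA within the 300 bases around the summit of its best peak, centred at −6.89 kb from the start, at positions 33, 97 and 127 in the direction of the gene. This window (chr8:84985490-84985789, minus strand, RefSeq, GRCm38) is shown because no other member window held as many, and the letters are in capitals. Among 91967 summit windows of 300 bases, from all regions of the genome with a peak in 3 or more libraries, 5.76% held TGACTCA at least once. Of the 65 such windows of the members, 8 did, and such a match is a description of letters and not of binding.
Junb upstream summit: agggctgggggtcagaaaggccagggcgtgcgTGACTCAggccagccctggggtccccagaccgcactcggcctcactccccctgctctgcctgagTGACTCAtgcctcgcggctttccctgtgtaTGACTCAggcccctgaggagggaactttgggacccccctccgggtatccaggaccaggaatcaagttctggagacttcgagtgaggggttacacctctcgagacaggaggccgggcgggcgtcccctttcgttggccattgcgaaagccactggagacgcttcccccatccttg
The fold of the Junb start region was 18.5 to 21.7 in WT and 21.3 to 25.0 in DKO at day 0, and 21.5 to 32.1 and 15.8 to 24.9 at day 6, which overlapped on both days.

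Jund, the JUN gene known for steady rather than induced expression, lies on chr8:70698949-70700616 (plus strand). Its mean coverage was lowest at day 3 in both genotypes. There were 5.34, 6.13 and 5.79 kb in WT against 5.01, 10.4 and 7.27 kb in DKO at day 0, and 4.47, 4.79 and 3.15 kb in WT against 1.93, 3.61 and 2.76 kb in DKO at day 3. Jund fell by 3.20 kb from day 0 to day 3 (exact permutation adjusted p = 0.0202). At day 6 the WT libraries held 5.58, 6.34 and 6.59 kb and the DKO libraries 3.60, 4.34 and 2.02 kb, and at day 9 they held 7.57, 8.15 and 8.16 kb and 10.3, 8.76 and 9.63 kb. From day 6 to day 9 Jund rose by 4.03 kb (exact permutation adjusted p = 0.0497). DKO was lower without overlap at day 6 (−2.85 kb) and higher without overlap at day 9 (1.62 kb), with exact permutation p = 0.1 each, whereas both days overlapped on the scaled length (−0.105 and 0.405 kb per 100 Mb). The difference changed with the day (exact permutation adjusted p = 0.0279, and 0.0403 without the wide-peaked library), which was not found on the scaled length (0.470).

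The start region of Jund, 8430 bp long and shared with the starts of Iqcn and Gm11175, held the best-ranked peak of the window in all 24 libraries. The fold of that peak was higher in DKO without overlap at day 0 (22.2 ± 2.90, SD, n = 3, against 16.4 ± 1.27 in WT), at day 3 (23.8 ± 0.903 against 19.7 ± 2.003) and at day 9 (29.3 ± 1.60 against 24.7 ± 1.29). Read instead as the highest fold in the window, day 0 overlapped, with 17.05, 20.7 and 17.8 in WT against 19.2, 24.9 and 22.4 in DKO. Over the 4 days that highest fold did not pass (exact permutation p = 0.277, adjusted p = 0.509). The summit reads of the best-ranked peak overlapped at day 0 (63 to 73 in WT, 56 to 122 in DKO) and at day 3 (35 to 66, 64 to 67). At day 9 they did not (68 to 76, 84 to 119). No share of all genes was computed for the fold at a start. At day 6 the fold of the best-ranked peak was 18.2 ± 3.45 in DKO and 25.1 ± 4.04 in WT, which overlapped. An intergenic region at −16.4 to −14.7 kb from the Jund start had a peak in all 3 WT and in 0 of 3 DKO libraries at day 6, with 14 to 18 reads at each summit. It was marked in 6 of 6 libraries at day 0 and at day 9 and in 1 of 6 at day 3. The 300 bases at its summit (chr8:70682454-70682753, plus strand, RefSeq, GRCm38) are shown as the sequence of that region and held none of the 4 motifs.
Jund upstream region: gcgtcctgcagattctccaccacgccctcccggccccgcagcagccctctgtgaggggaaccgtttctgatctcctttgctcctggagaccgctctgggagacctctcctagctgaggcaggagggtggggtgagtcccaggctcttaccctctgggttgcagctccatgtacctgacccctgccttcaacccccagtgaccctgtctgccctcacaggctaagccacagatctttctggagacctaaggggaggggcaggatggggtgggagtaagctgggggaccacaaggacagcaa
A neighbouring region at −9.84 to −9.12 kb, whose summit window held TGACTCA, had a peak in 3 of 3 libraries of both genotypes at day 9 and in 1 of the 18 earlier libraries.

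**Figure D2:**
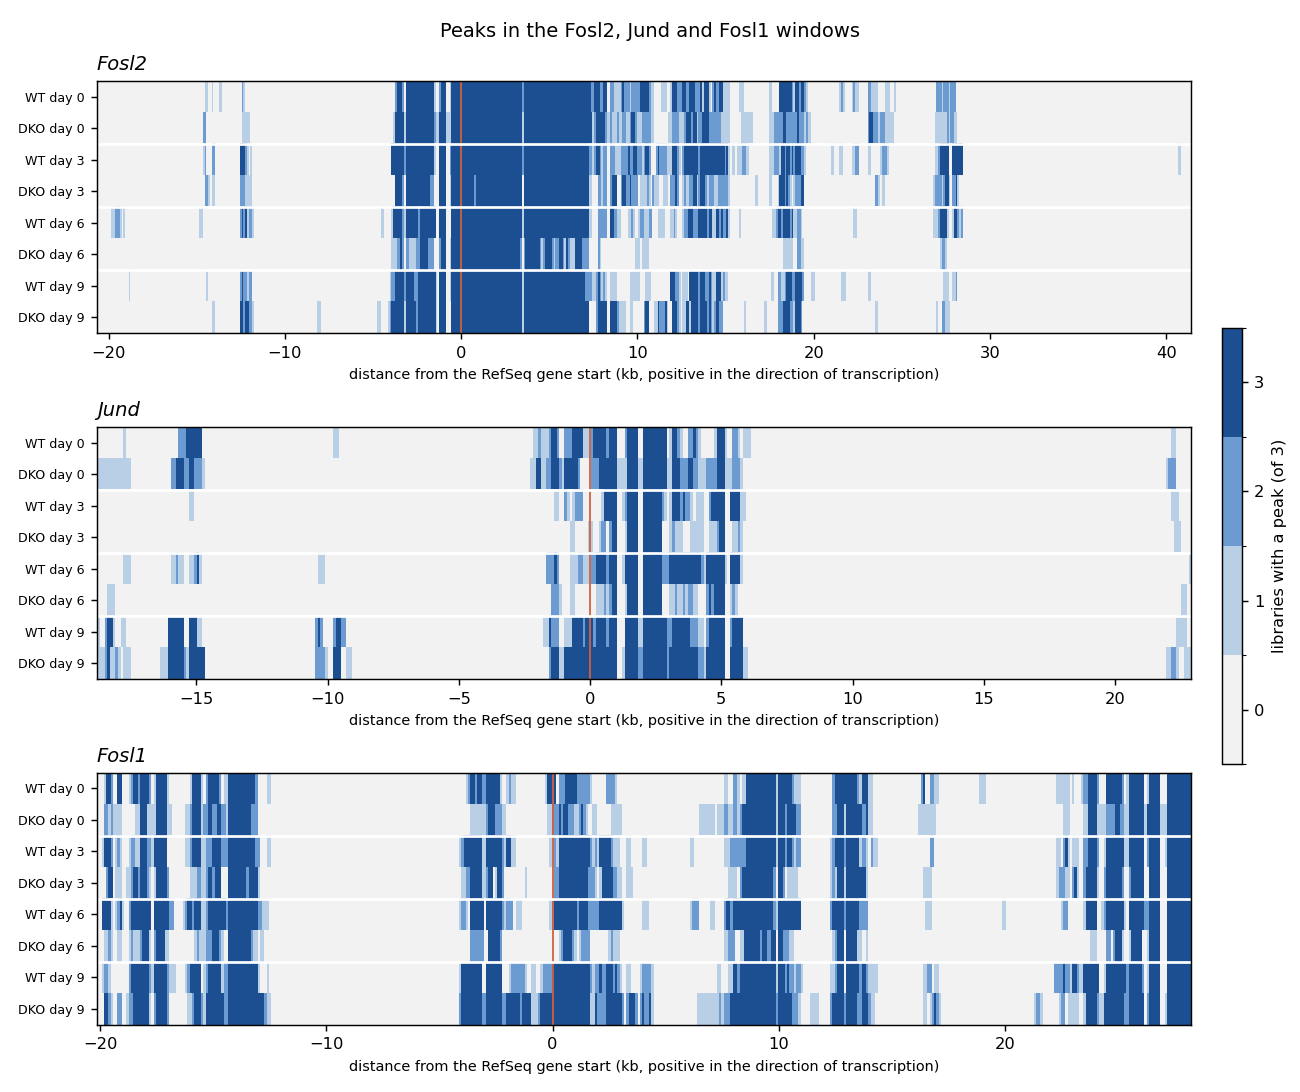
Number of libraries (0 to 3, shade) with a peak along the Fosl2, Jund and Fosl1 windows, by group (rows), against the distance in kb from the RefSeq start (red line). In the DKO row of day 6 the wide Fosl2 region is thinned downstream of the start and the Jund region between −16.4 and −14.7 kb is empty, while both are marked in WT of that day and in both genotypes of day 9.

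Atf3, a stress-induced member of the ATF and CREB family that often represses its targets, lies on chr1:191170296-191218039 (minus strand). Its annotated span includes a start 34.7 kb upstream of the RefSeq start, so its window of 87.7 kb was the longest of the members. It was marked mostly at day 0, with 7.59, 9.21 and 7.77 kb in WT against 11.1, 19.7 and 12.6 kb in DKO. The later days held 1.59 to 3.43 kb in WT against 1.33 to 4.89 kb in DKO. From day 0 to day 3 Atf3 fell by 9.34 kb (exact permutation adjusted p = 0.0202), with separate changes of −6.14 kb in WT and −12.5 kb in DKO, and from day 0 to day 9 it fell by 7.82 kb (adjusted p = 0.0192). The sums of the macrophage and blood, endothelial and smooth muscle markers were in kb also highest at day 0, as given above. Scaled, the macrophage and blood sum in DKO was 11.99 to 19.1 kb per 100 Mb at day 0 and 18.2 to 22.7 at day 3. Their part in the Atf3 values was not tested.

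At day 0 DKO exceeded WT at Atf3 by 6.29 kb without overlap (exact permutation p = 0.1), and by 3.66 kb, still without overlap, when the wide-peaked library was left out. The scaled length gave 16.5, 16.9 and 15.3 kb per 100 Mb in WT and 23.3, 20.5 and 21.7 in DKO on that day. At day 6 it gave 4.91, 3.76 and 4.14 in WT and 7.27, 6.63 and 7.73 in DKO, again without overlap. In kb, the day 6 values overlapped, with 2.77, 2.09 and 2.5 kb in WT against 2.57, 2.41 and 1.60 kb in DKO. Over the 4 days the difference was 1.78 kb (exact permutation p = 0.0208), which did not pass after adjustment (adjusted p = 0.398). On the scaled length Atf3 was higher in DKO by 2.61 kb per 100 Mb over the 4 days (exact permutation p = 0.000225, adjusted p = 0.00477), the only member to pass in that measure, in which 13.1% of all genes were called higher in DKO. Without the wide-peaked library the exact test gave 2.78 (adjusted p = 0.00439), Fos passed as well (2.28, adjusted p = 0.0466), and 15.8% of all genes were called. The macrophage and blood markers, scaled the same way, were also higher in DKO without overlap at day 3 (18.2 to 22.7 against 12.03 to 15.6 kb per 100 Mb in WT) and at day 6 (9.95 to 14.6 against 4.88 to 6.73). They overlapped at day 0 (11.99 to 19.1 against 14.8 to 17.6) and at day 9 (4.83 to 6.05 against 4.75 to 5.01), and their part in the scaled Atf3 difference was not tested. With the 20000 strongest peaks of each library the Atf3 difference was 1.52 kb (exact permutation p = 0.0287, adjusted p = 0.503).

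The day 0 length at Atf3 was spread over several regions. The region at the RefSeq start kept a peak in all 24 libraries. From day 0 to day 9 its fold in WT was 12.7 ± 1.00 (SD, n = 3), 5.35 ± 0.404, 9.55 ± 1.11 and 13.4 ± 0.631, and in DKO it was 13.2 ± 1.83, 7.52 ± 0.663, 8.99 ± 0.0952 and 11.8 ± 3.03. At day 3 the fold was thus higher in DKO without overlap, a difference for which no share of all gene starts was computed. The summit reads there were 37 to 39 in WT and 41 to 78 in DKO at day 0, and 10 to 25 and 18 to 23 at day 3. A region at −19.8 to −13.6 kb was marked for 3.12, 3.08 and 2.29 kb in WT against 3.61, 6.16 and 4.22 kb in DKO at day 0, and for at most 0.81 kb in 7 of the 18 later libraries. A region at −11.5 to −10.5 kb had a peak in all 6 libraries of day 0 and none of the 18 later ones. The best-ranked peak of the whole window was in every library at the start of the neighbouring D730003I15Rik and not at Atf3.

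A single region of Atf3 separated the genotypes at day 0. It lay at −33.7 to −33.1 kb from the RefSeq start, in an intron just inside the outermost annotated start, and had a peak in 3 of 3 DKO libraries and in none of the other 21. The folds were 5.26, 2.94 and 4.54 and the summit reads 14, 19 and 12, so these were weak peaks near the threshold. Its summit window is shown because it was the only region of the members held by all DKO and no WT libraries of a day (chr1:191216705-191217004, minus strand, RefSeq, GRCm38), and it held none of the 4 motifs.
Atf3 distal region: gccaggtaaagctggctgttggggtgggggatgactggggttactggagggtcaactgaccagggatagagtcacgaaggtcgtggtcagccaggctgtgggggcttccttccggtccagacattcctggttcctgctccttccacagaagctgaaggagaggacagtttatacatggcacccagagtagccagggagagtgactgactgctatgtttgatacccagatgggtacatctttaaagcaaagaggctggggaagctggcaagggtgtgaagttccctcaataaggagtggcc

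Batf3, a leucine zipper protein known for its role in dendritic cells, where it pairs with JUN proteins, lies next to Atf3 on chr1:191097847-191108945 (plus strand). It was the least marked member and the most confined to day 0. The Batf3 window held 2.69, 3.29 and 2.53 kb in WT against 3.04, 6.71 and 4.06 kb in DKO at day 0. It held at most 0.968 kb in any library of days 3 and 9, and no peak in any of the 6 libraries of day 6. Batf3 fell by 3.41 kb from day 0 to day 3 (exact permutation adjusted p = 0.0202) and by 3.41 kb from day 0 to day 9 (adjusted p = 0.0192). From day 6 to day 9 it rose by 0.304 kb (exact permutation adjusted p = 0.0497), with 0.165 to 0.649 kb per library at day 9. The strongest folds that day were 4.147 to 4.549 in WT and 4.065 to 5.225 in DKO, so these were weak peaks. The step did not pass with peaks of −log10 q of at least 5. Regions between 24.7 and 26.2 kb downstream of the start had peaks at day 9 alone. Its own start had a peak in 6 of 6 libraries at day 0, with folds of 3.74 to 7.02 and 13 to 18 reads, and in 3 of the 18 later libraries. A longer region 10.9 to 13.98 kb downstream of the start held 1.89, 1.94 and 1.61 kb in WT against 1.75, 3.06 and 2.17 kb in DKO at day 0. The DKO difference of 1.77 kb at day 0 came with overlap (exact permutation p = 0.2), and on the scaled length the groups did not overlap (1.2 kb per 100 Mb, p = 0.1).

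Because Batf3 is a gene of haematopoietic cells, the blood markers were set beside it. The summed length at the 6 macrophage and blood markers was above 8 kb in all 6 libraries of day 0, when Batf3 was marked, and 4.83 to 7.64 kb at day 3, when 4 of 6 libraries had a Batf3 peak. It was 2.06 to 5.29 kb at day 6, when none had 1, and 2.29 to 4.17 kb at day 9. Scaled, the sum in DKO was 11.99 to 19.1 kb per 100 Mb at day 0 and 18.2 to 22.7 at day 3. In WT it was 14.8 to 17.6 and 12.03 to 15.6. The mean scaled length of Batf3 went from 6.78 to 0.538 kb per 100 Mb in DKO over these days, and from 5.60 to 0.787 in WT. Over the 24 libraries the scaled lengths of Batf3 and Atf3 had a Pearson r of 0.956, of Batf3 and Fosb 0.935 and of Atf3 and Fosb 0.872. These values describe libraries that share their days, so the common day 0 excess enters all 3. Whether the blood cells contributed was not tested.

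**Figure D3:**
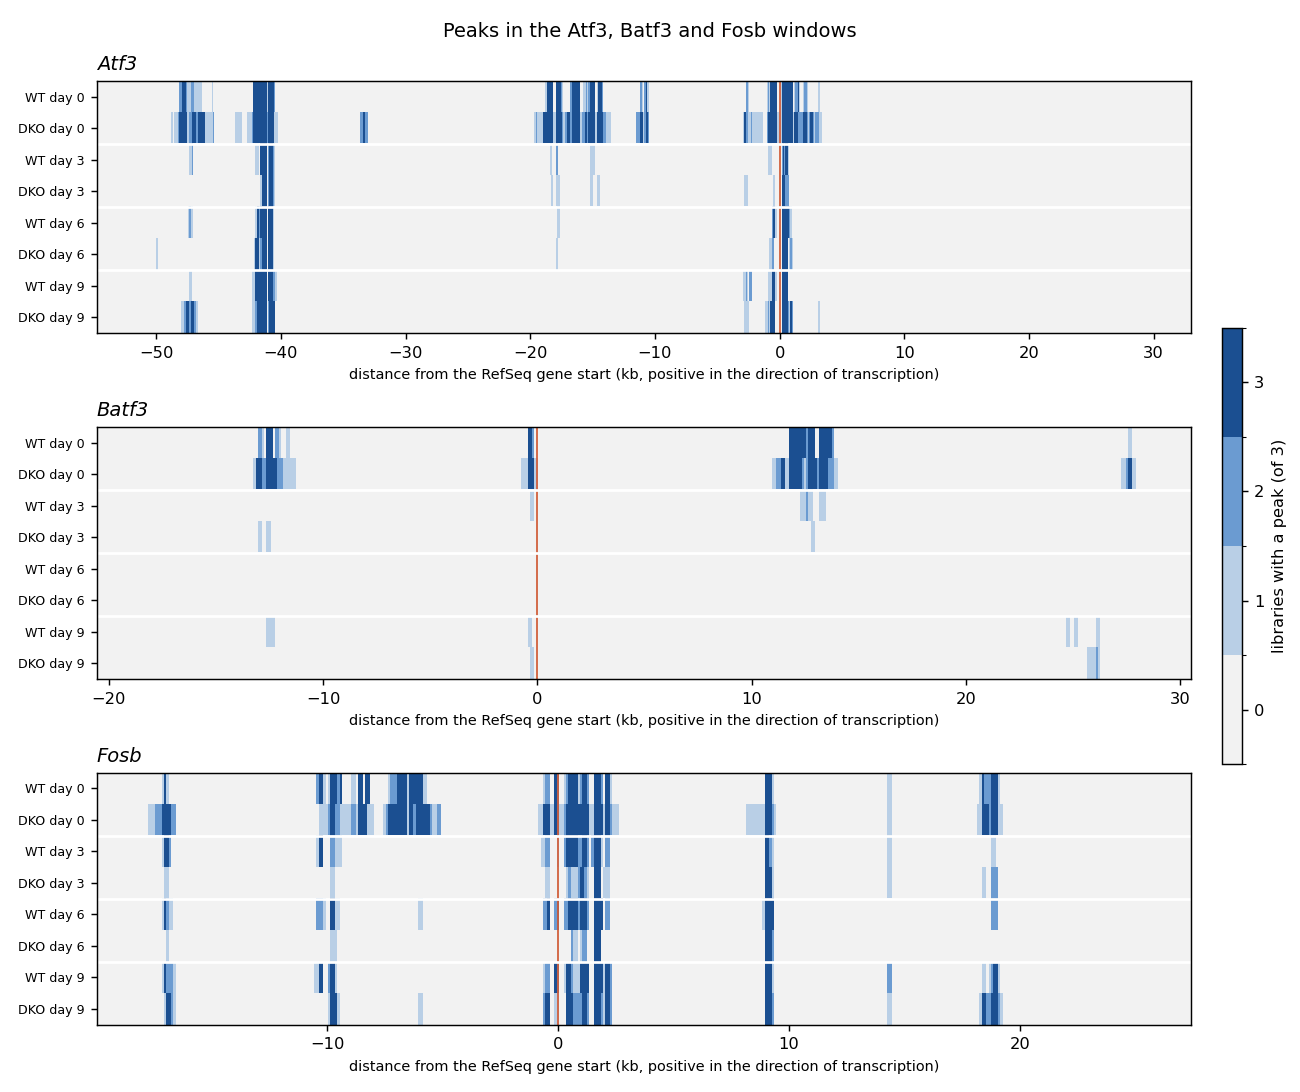
Number of libraries (0 to 3, shade) with a peak along the Atf3, Batf3 and Fosb windows, by group (rows), against the distance in kb from the RefSeq start (red line). Both rows of day 0 have peaks in 3 of 3 libraries within −19.8 to −13.6 kb of Atf3, 10.9 to 13.98 kb of Batf3 and −7.61 to −5.07 kb of Fosb. The WT libraries of day 0 cover these spans only in part, and 7, 3 and 2 of the 18 later libraries have shorter peaks there. The block near −33 kb of Atf3 is seen in DKO of day 0 alone.

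The genotypes were compared at each day over all members. At day 0 DKO was higher without overlap at 2 of 9 members, Fos and Atf3, against 19.3% of all genes, and lower at 0, against 0.761%. Scaled, 3 were lower (Fosl1, Fosl2 and Jun) and 2 higher (Atf3 and Batf3), against 11.2% and 12.2%. At day 3 no member was without overlap, against 9.6% of all genes lower and 0.49% higher in DKO, while without the shallow WT library 6 members were lower, against 57.7% of all genes. Scaled, 2 were lower at day 3 (Fosb and Jund) and 1 higher (Fos), against 7.83% and 13.4%. At day 6 DKO was lower without overlap at 7 of 9 members and higher at 0, against 66.6% and 0.0845% of all genes, whereas on the scaled length 1 member was lower (Fosb) and 3 were higher (Jun, Junb and Atf3), against 15.0% and 38.4%. At day 9 DKO was higher at 3 (Fosl1, Junb and Jund) and lower at 0, against 32.9% and 1.63%, and on the scaled length 0 were higher and 2 lower (Fosl2 and Jun), against 14.7% and 13.4%. The members' shares in kb at days 0, 6 and 9 were thus near those of all genes. The median DKO difference of the members was 1.77 kb at day 0, −0.798 kb at day 3, −2.85 kb at day 6 and 1.36 kb at day 9, beside 0.760, −0.307, −0.952 and 0.387 kb over all genes. These medians are absolute lengths and not relative to the length covered. By share of window covered, Fos, Fosl1, Fosl2 and Junb ranked at percentiles of 98.1 to 99.8 among all genes tested.

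**Figure D4:**
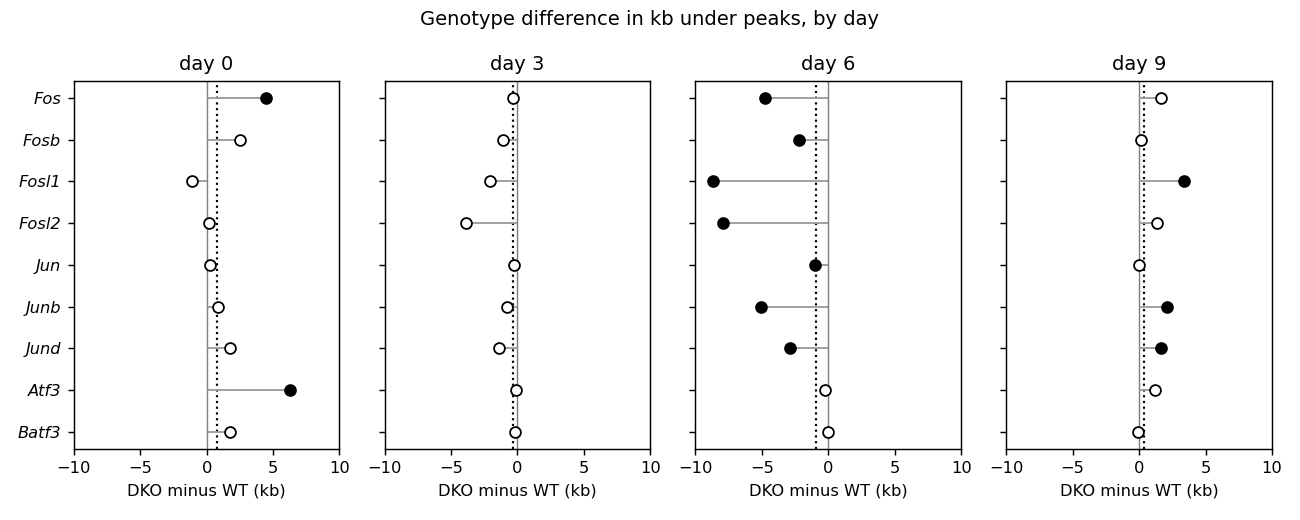
DKO minus WT difference in kb under peaks (horizontal axes) for each member (rows) at each day, with filled points where the values of the genotypes did not overlap and a dotted line at the median of all 17747 genes. At day 6, 7 filled points lie to the left, from −0.975 kb at Jun to −8.69 kb at Fosl1, and on the scaled length Jun and Junb lie to the right without overlap.

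Joined over the 4 days, no member passed the exact permutation test of the genotype in kb after Benjamini-Hochberg adjustment. Among all genes 0.13% passed lower and 0.0282% higher in DKO. At an unadjusted p under 0.05 there were 2 members (Fosl2 and Atf3) and 9.46% of all genes. The difference changed with the day at 3 members (Fos, Fosb and Jund), against 28.9% of all genes, and at 5 members and 52.9% of all genes before adjustment. For the highest fold in the window 0 members passed, against 5.43% of all genes, and 0 had an unadjusted p under 0.05, against 24.6%. For the best rank of a peak in the window by q value 0 passed, against 2.89%. Before adjustment 2 had a better rank in DKO, against 20.7% of all genes with a difference in either direction. These were Jund (−1.30 on the log2 rank, exact permutation p = 0.00341, adjusted p = 0.0696) and Junb (−0.83, p = 0.0449, adjusted p = 0.229).

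**Figure D5:**
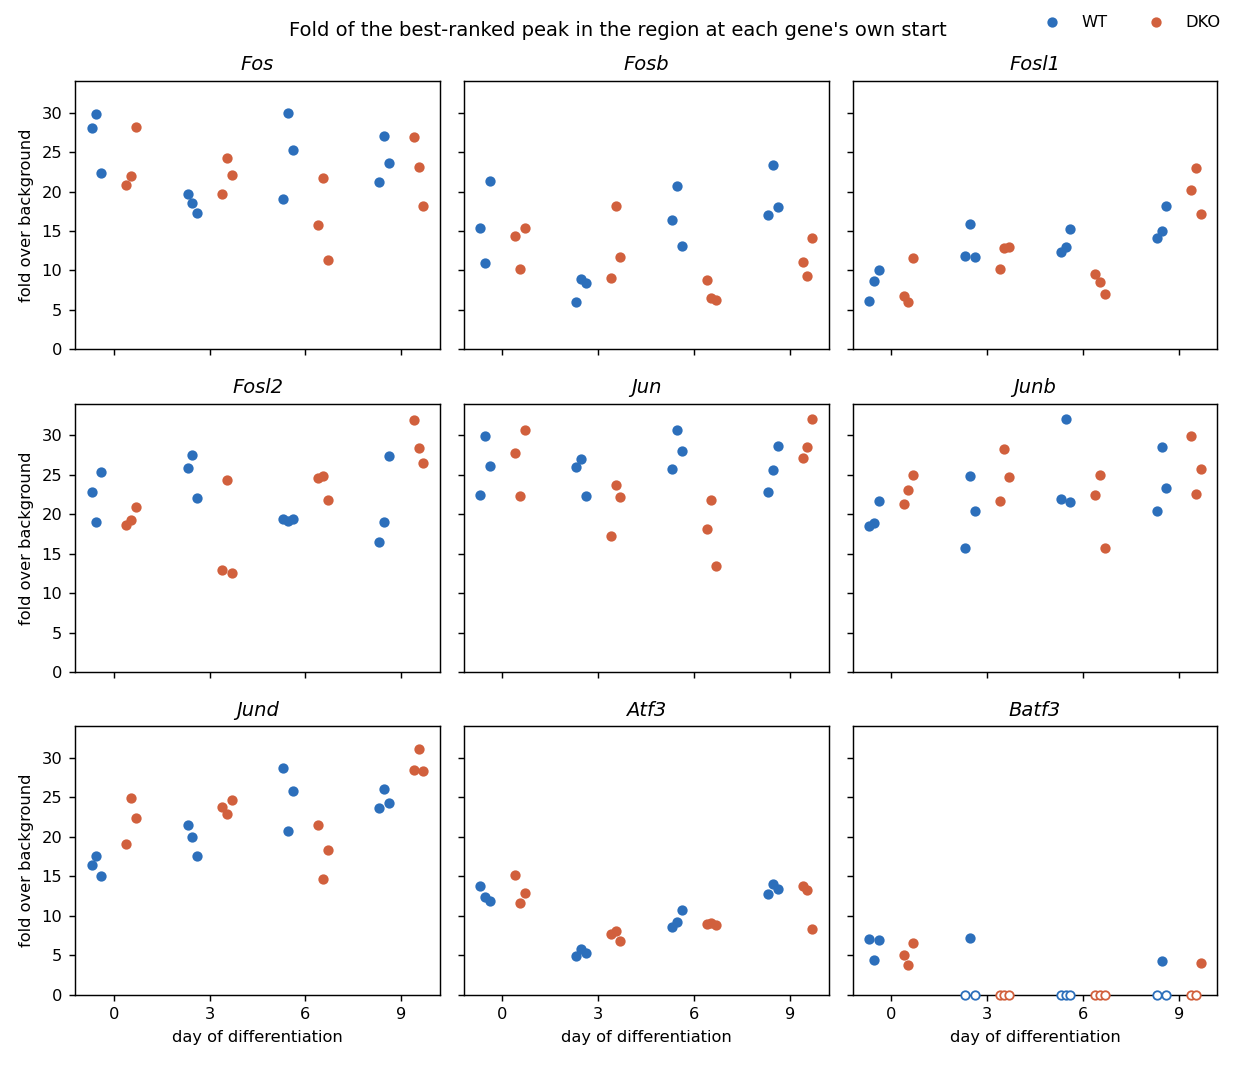
Fold over the local background (vertical axes) of the best-ranked peak in the region at each gene's own start against the day of differentiation, with 1 point per library (WT blue, DKO orange, open points at 0 for libraries without a peak there). The Fosl1 start has folds of 5.97 to 11.6 at day 0 and 14.1 to 23.04 at day 9, the Atf3 start is lowest at day 3, and the Batf3 start is empty in most libraries after day 0.

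The steps between days were tested with both genotypes joined. From day 0 to day 3, 5 of 9 members fell in kb (Fosb, Jun, Jund, Atf3 and Batf3), against 32.9% of all genes, and 0 rose, against 1.47%. On the scaled length Fosb, Jund, Atf3 and Batf3 fell at that step, whereas Fosl1 and Fosl2 rose. No share of all genes is given for the scaled steps. From day 3 to day 6 no member passed in either direction, and neither did any other gene (0% and 0%), with an unadjusted exact p under 0.05 at 2 members, Fosl2 (−5.25 kb, p = 0.01, adjusted p = 0.0818) and Jund (1.29 kb, p = 0.045, adjusted p = 0.181), and at 24.8% of all genes. By scaled length 3 members fell at this step (Fos, Fosb and Fosl2) and 1 rose (Jund). Without the shallow WT library of day 3 the Fosl2 step passed. For neither setting is a share of all genes given, and the 0% above holds for kb in all libraries alone. From day 6 to day 9, 2 members rose (Jund and Batf3), against 10% of all genes, and 0 fell, against 0.0282%. From day 0 to day 9, 3 fell (Fosb, Atf3 and Batf3), against 16.1%, and 1 rose (Fosl1), against 17.1%. On the scaled length Fosl2 also fell and Jund also rose over that step. Jund differed by 2.12 kb over that step (exact permutation adjusted p = 0.0663) and passed without the wide-peaked library. The median change of the members was −3.20 kb from day 0 to 3, −0.269 kb from day 3 to 6, 2.89 kb from day 6 to 9 and −0.613 kb from day 0 to 9, beside −0.732, 0.115, 0.607 and 0.0293 kb over all genes. These medians are absolute lengths and not relative to the length covered. From day 6 to day 9 the mean of Fosl1 differed by 11.8 kb in DKO and by −0.286 kb in WT, and that of Fos by 6.11 and −0.335 kb. Neither passed when the genotypes were joined (exact permutation adjusted p = 0.157 and 0.173).

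The windows of the members held 94 merged regions, of which 21 had a peak in all 24 libraries and 26 in 1 library. Regions with a peak in 3 of 3 libraries of one genotype and 0 of 3 of the other were few. At day 0 there was 1 such region in DKO (Atf3) and 0 in WT. Of all regions with a peak in 3 or more libraries of that day, 2.45% and 1.95% were of this kind. The percentages for later days use the same limit, which was not set on the 94 regions. At day 3 there was 1 in WT (Fosl2) and 0 in DKO, against 3.78% and 0.411%. At day 6 there were 3 in WT (2 at Fosl2 and 1 at Jund) and 0 in DKO, against 16.5% and 0.141%, and at day 9 there were 0 in either, against 1.08% and 4.09%. When a library counted only where peaks covered at least 50% of the region, the day 6 count was 4 in WT, day 3 had 0, and DKO had 3 at day 0 and 2 at day 9. The shares of all regions under that rule were not computed.

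Other genes of the pathway were read in the same way. Of 22 further leucine zipper genes (among them Maf, Atf4, Creb1 and Nfe2l2) 21 had peaks, and 17 of these were lower in DKO without overlap at day 6. The count was 23 of 24 immediate-early genes such as Egr1, Ier2 and Dusp1, 11 of 15 MAP kinase genes and their ETS targets, which carry the signal to the FOS and JUN promoters, and 15 of 17 known AP-1 target genes, beside the 66.6% of all genes given above. The lists' median differences at day 6 were −2.25, −1.88, −1.81 and −2.80 kb, beside −0.952 kb over all genes. These medians, the counts and the Mmp3 values below are absolute lengths in kb, and no scaled length is given for them. For the members the scaled length changed the day 6 counts from 7 lower and 0 higher to 1 lower and 3 higher. Over the 4 days only Mmp3, a matrix protease and classic AP-1 target, passed among these lists. It was lower in DKO by 1.68 kb (exact permutation p = 6.25e-05, adjusted p = 0.0427), and without overlap at days 0, 3 and 6. From day 0 to day 3, 12 of the leucine zipper genes, 16 of the immediate-early genes, 5 of the MAP kinase genes and 7 of the targets fell, and 0 of them rose, beside the 32.9% and 1.47% of all genes given above.

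The genes whose scaled length most resembled that of a member over the 24 libraries, on another chromosome, were Mrpl28 for Fos (Pearson r = 0.887), Crim1 for Fosb (0.958), Ddit4 for Fosl1 (0.913), Nfix for Fosl2 (0.90) and Gm9887 for Jun (0.968). They were Vmp1 for Junb (0.971), Cspg4 for Jund (0.929), Slco4a1 for Atf3 (0.984) and Tnfsf8 for Batf3 (0.987). Each was the highest of all protein-coding genes off the member's chromosome, and the libraries share their days and genotypes. Among the members themselves the scaled lengths of Junb and Jun had an r of 0.927, whereas Atf3 and Fosl1 had an r of −0.760, the lowest of any pair of members.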

How the data were processed

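H3K27ac ChIP-seq was analysed from 24 deposited peak lists. Per the paper's methods and the submitters' processing notes (bcl2fastq 2.17, cutadapt 1.18, BWA 07.17), the authors aligned reads to mm10 and called peaks per library with MACS2 2.1.1.20160309. Each deposited list gives a peak's fold (a ratio to the local background), its −log10 p-value and its −log10 q-value, the lowest being 2.00 (q of about 0.01), so weaker signal is unseen. Which input library served each list was not given in the sources used here, and the 16 inputs were not used.

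Kb under peaks was summed in each GENCODE M21 protein-coding gene span plus 20 kb either side. Depth is unknown from peak lists. Reads at a summit were recovered from the fold and the p-value, and background reads per kb served as a proxy. Genotypes were compared by two-sided exact permutation of libraries within days (160000 relabellings, smallest p 1.25e-05; 20 per day, smallest 0.1; 400 per step, smallest 0.005), with Benjamini-Hochberg adjustment over 17747 genes and a threshold of 0.05. The change with day was tested by the variance of the 4 day differences. Distances are from the RefSeq start, positive downstream. Sequences are from RefSeq (GRCm38, the same assembly as mm10). Of the members, 8 had a promoter entry. Scripts were tested on simulated data and used Python 3.11.15, numpy 2.4.6, pandas 2.3.3, scipy 1.17.1, numba 0.67.0 and matplotlib 3.10.9.

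Members and lists were chosen with earlier results of these data known. The text names the 9 members, the regions in 3 of 3 libraries of one genotype and 0 of 3 of the other, the strongest region of each member, the most similar gene on another chromosome, and listed genes that pass over the 4 days. Other regions described were chosen after their values were seen. Alternatives covered q and peak-number limits, window size, summits, scaling, single libraries left out and a replicate block. Groups came from the labels.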

Additional observations from a re-analysis of the deposited data

Results flagged for a closer look

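The DKO minus WT difference took opposite directions on different days at several members. At Fos it was 4.50 kb at day 0 and −4.80 kb at day 6, both without overlap, and the change with the day passed the exact permutation test (adjusted p = 0.0251). The change also passed at Fosb (adjusted p = 0.0278) and Jund (adjusted p = 0.0279) by the same exact test. At Jund every DKO library lay below WT at day 6 (−2.85 kb) and above it at day 9 (1.62 kb). Fosl1 (−8.69 and 3.38 kb) and Junb (−5.07 and 2.09 kb) had the same signs at days 6 and 9, and the change with the day there did not pass (exact permutation adjusted p = 0.0763 and 0.0621). None of these changes passed on the scaled length, and among all genes 28.9% had such a change.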

How the results depend on the processing

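Counts of members are given first as reported and then under each alternative that moved them by over 1.5 times. With the scaled length, and with it but without DKO day 0 replicate 2 (chosen after seeing the data), members higher in DKO over the 4 days went from 0 to 1 and 2. Under both, the non-overlapping members went from 0 to 3 lower at day 0, from 0 to 2 lower and 0 to 1 higher at day 3, from 7 to 1 lower and 0 to 3 higher at day 6, and from 0 to 2 lower and 3 to 0 higher at day 9. Under both, steps went from 0 to 2 higher (day 0 to 3), 0 to 3 lower and 0 to 1 higher (3 to 6) and 1 to 2 higher (0 to 9), the change with day from 3 to 0, and, without the wide library, 3 to 5 lower (0 to 9). The shares of all genes without overlap on the scaled length are given above. For the scaled length without the wide library, 15.6% of all genes were lower at day 0. With 250 bp either side of summits, day 0 had 1 lower and 0 higher, against 8.17% and 1.53% of all genes. Day 6 then had 3 lower, against 30.3%, and day 9 had 1 lower and 0 higher, against 2.87% and 13.6%. In this setting the day 0 to 3, 6 to 9 and higher 0 to 9 steps and the change with day had 0. Within 1 kb of starts (8 members measured, without Atf3), day 0 had 1 higher, against 14.6% of all genes, and day 3 had 2 lower, against 12.7%. Day 9 had 1 higher there, against 17.75%, and all steps and the change with day had 0. With the 20000 strongest peaks, day 0 had 1 higher, against 17.45% of all genes, and day 3 had 1 lower, against 10.1%. Under that limit the day 0 to 3 step had 2, the other steps and the change with day 0. With 40000, day 3 had 1 lower, against 11.5% of all genes, day 6 to 9 had 0 and the change with day 1. At −log10 q of at least 5, day 3 had 2 lower, against 8.915% of all genes, and day 6 to 9 had 0, as it also had with 5 kb either side. Leaving out 1 library or replicate number gave 0 to 1 lower and 2 to 5 higher at day 0, against 0.764% to 10.1% and 19.4% to 49.9% of all genes. It gave 0 to 6 lower at day 3, against 9.61% to 59.8%, and 3 to 6 higher at day 9, against 32.9% to 55.0%. The steps had 0 to 5 (day 0 to 3), 0 to 1 (lower, 3 to 6), 0 to 2 (6 to 9), 0 to 3 lower and 0 to 2 higher (0 to 9), and the change with day had 0 to 4. No shares of all genes are given here for steps or for the change with day. With 2 libraries per group the exact test of a step cannot go below p = 0.0556. When regions needed 50% coverage, DKO day 0 went from 1 to 3, WT day 3 from 1 to 0 and DKO day 9 from 0 to 2. The causes were not tested.

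Differences over the 4 days reversed as follows, in kb (scaled: per 100 Mb). Fos: −0.538 (summits), −0.0663 (starts), −0.925 (without replicate 2), −0.472 (without DKO day 0 replicate 2), −0.0274 (without WT day 3 replicate 3), with −0.925 to 0.981 over all libraries left out. Fosb: 0.741 and 0.604 (20000 and 40000 peaks), 0.293 (without replicate 1, range −0.662 to 0.293). Fosl2: 0.00492 (starts). Jun: 1.01 (scaled), 0.0193 (starts), 1.29 (scaled without the wide library). Junb: 0.232 (summits), 2.94 (scaled), 0.00333 (starts), 3.69 (scaled without the wide library). Jund: 0.494 and 0.284 (20000 and 40000 peaks). Batf3: −0.135 (summits). The day 0 to 3 step reversed for Fos (1.39 summits, 2.92 scaled, 2.62 scaled without the wide library), Fosl1 (−0.0933, starts), Fosl2 (−0.358 at q 5, −0.401 with 5 kb, −0.0777 starts, −0.934 without replicate 1, range −0.934 to 1.55), Jun (0.0142, 2.33 and 1.78, as for Fos) and Junb (0.856, 11.8 and 10.3, as for Fos).

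The replicate numbers did not pair the libraries: of 12 pairs of WT and DKO libraries with the same number and day, 4 had a correlation of deviations over 0.1 (range −0.382 to 0.552). With the numbers as a replicate block, the exact test had too few relabellings for the steps (smallest p 0.0313), and 0 members passed from day 0 to 3, 6 to 9 or 0 to 9.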
